A study of Homo sapiens with 12 samples.

Results

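The genes described here are SPP1, which encodes osteopontin, 6 genes for insulin-like growth factor (IGF) binding proteins (IGFBP2 to IGFBP7) and the 2 IGF receptor genes IGF1R and IGF2R. They were taken by gene name, 9 of the 58174 genes in the deposited tables, and all 9 passed the filter on low counts that left 14232 genes. They were chosen by their read levels in the 6 groups of the study and by how those levels differed between cells with XRN2 siRNA and both kinds of control cells. Their values for siXRN2 against the controls are therefore given as a description. Tests are given for LN229 against U251 in mock and for siNT against mock, contrasts that the choice did not use, but the levels behind them were known when the genes were chosen.

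The study transfected 2 established cell lines from human glioblastoma, LN229 and U251, and sequenced libraries made from RNA harvested 72 hours after reverse transfection. Each line had 3 groups of 2 libraries, 12 libraries in all: mock transfection, a control siRNA (siNT) and an siRNA against XRN2 (siXRN2). XRN2 encodes a nuclear exoribonuclease that degrades RNA from its 5′ end, and no source used here gives the sequences of the siRNAs. LN229 was kept in DMEM with 5% fetal bovine serum and U251 in EMEM with 10%, so cell line and medium cannot be told apart. Serum carries IGFs, and both lines shared antibiotics and the 72-hour interval. Whether replicates were separate cultures is not in the labels, and the p-values cover the spread among these libraries alone, and that spread may be technical.

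Osteopontin is a secreted, phosphorylated glycoprotein of bone matrix, inflamed tissue and many tumours, which binds CD44 and integrins such as those with the ITGAV chain. IGF1 and IGF2 signal through the receptor tyrosine kinase IGF1R, whereas IGF2R, the mannose 6-phosphate receptor, takes IGF2 and lysosomal enzymes into the cell. The secreted binding proteins hold IGFs outside the cell, and they both limit and prolong IGF action until proteases such as PAPPA release the ligand. SPP1 and several IGFBP genes, IGFBP2 among them, are known to be highly expressed in glioblastoma.

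XRN2 itself was read at 202 to 243 CPM (exon reads-per-million, scaled by trimmed mean of M-values) in the 4 control libraries of LN229 and at 33.5 and 25.6 CPM with siXRN2. In U251 it was read at 134 to 144 CPM in the controls and at 31.1 and 26.2 CPM with siXRN2. The labels of siXRN2 against control thus held in all 12 libraries. XRN2 cannot check mock against siNT, which had like levels of it. The libraries had 4846768 to 7469052 exon reads. An approximate, not strict, upper limit for a count of 0 is 3 reads, which were worth 0.402 to 0.619 CPM. These limits cover counting error only. Of the glial markers, GFAP was read at 2351 to 6903 CPM in U251 but at 1.05 to 4.31 CPM in LN229, while VIM and NES were present in both lines. The pair of LN229 siNT libraries stood apart from each other: their gene-wise difference followed exon length (Spearman's rho -0.52 over 13494 genes, against -0.03 to 0.10 in the other 5 pairs), and replicate 1 had the lowest intron share, 5.58% of gene reads. The U251 mock pair differed most, with a chi-square of 26.0 per gene against 1.72 to 18.4 in the other pairs. Summed CPM of 8 macrophage and blood markers was 2.28 and 6.11 with siXRN2 against 8.25 to 10.7 in the LN229 controls, and 68.8 and 71.9 against 50.1 to 67.3 in U251. These sums were mostly 1 gene, CD68, with 1.40 to 9.68 CPM in LN229 and 47.4 to 69.7 CPM in U251. AIF1, TYROBP and CD163 had no read in any of the 12 libraries. In LN229 with siXRN2 the summed CPM of 9 glial markers was 2783 and 3679 against 4309.8 to 5765 in the controls. VIM made up most of this glial sum, with 1870 to 4172 CPM over the LN229 libraries. The sum of 6 epithelial markers was 56.8 and 70.8 against 80.3 to 121, and that of 6 endothelial markers 8.14 and 9.47 against 3.43 to 4.57. In U251 the fibroblast list had 7 of its 8 markers in the data. It summed to 2389 and 2466 CPM with siXRN2 against 1456 to 2299 in the controls, most of it COL1A2. The endothelial list there summed to 13.8 and 15.2 against 16.4 to 21.6, with KDR alone at 6.92 to 18.4 CPM. The part of these shifts in the results below was not tested, and in bulk RNA fewer cells of a type and less RNA per cell cannot be told apart.

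The bases just before the RefSeq start of 3 of the genes are shown because their readings with siXRN2 differed from those with siNT in opposite ways: SPP1 and IGFBP4 were read lower in both lines, and IGFBP3 was read higher in U251. RefSeq windows (GRCh38.p14) were found for 8 of the 9 genes, 10 windows in all, with none matched for IGFBP7. Each window runs 5′ to 3′ over the 250 bases before the RefSeq start. That start lies inside the deposited gene for SPP1 and IGFBP3, so the end of the SPP1 window and the whole IGFBP3 window fall within the deposited genes. Capitals mark matches on either strand to the 3 motifs searched (TATAAA, then TTTAAA, and the GC-rich GGGCGG). Matches do not overlap one another in these 3 windows.
SPP1, chr4:87975464-87975713, plus strand: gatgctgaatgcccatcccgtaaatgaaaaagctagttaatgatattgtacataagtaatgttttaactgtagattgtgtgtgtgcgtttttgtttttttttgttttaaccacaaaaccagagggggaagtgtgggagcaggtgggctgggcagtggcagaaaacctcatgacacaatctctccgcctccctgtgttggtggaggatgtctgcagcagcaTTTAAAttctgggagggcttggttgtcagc
IGFBP4, chr17:40443200-40443449, plus strand: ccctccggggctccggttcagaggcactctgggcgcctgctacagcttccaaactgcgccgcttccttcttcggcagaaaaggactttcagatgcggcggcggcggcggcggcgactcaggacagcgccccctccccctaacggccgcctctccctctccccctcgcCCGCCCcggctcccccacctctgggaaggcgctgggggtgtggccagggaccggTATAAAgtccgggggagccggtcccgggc
IGFBP3, chr7:45921273-45921522, minus strand: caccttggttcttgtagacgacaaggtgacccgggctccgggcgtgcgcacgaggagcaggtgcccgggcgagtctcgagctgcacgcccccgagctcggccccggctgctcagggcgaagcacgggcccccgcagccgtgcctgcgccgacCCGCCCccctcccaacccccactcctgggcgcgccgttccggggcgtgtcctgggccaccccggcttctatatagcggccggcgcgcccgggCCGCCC
SPP1 has TTTAAA at position -30 from the RefSeq start and IGFBP4 has TATAAA at position -29. IGFBP5, whose window is not printed, has TTTAAA at position -29. The IGFBP3 window holds no exact match to either of these. It does read tatatag near its end, a stretch that the exact motifs do not cover. It has 2 matches to GGGCGG, both read on the opposite strand as CCGCCC, and the IGFBP4 window has 1 such match. Among 35116 promoter windows of this length, 10.7% held TATAAA, 11.3% held TTTAAA and 42.6% held GGGCGG. Base composition differed as well, with 44.8% G and C in the SPP1 window, 71.6% in that of IGFBP4 and 76.0% in that of IGFBP3. A match is a description of the sequence and not evidence of a site in use.

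SPP1 (ENSG00000118785, chromosome 4, 87975650 to 87983426 on the plus strand, coordinates as deposited) had overlapping levels in the mock cells of the 2 lines and was lower with siXRN2 in both. In LN229 it had 105 and 116 CPM in mock, 132 and 133 in siNT, and 62.7 and 72.4 with siXRN2. In U251 it had 107 and 118 CPM in mock, 107 and 129 in siNT, and 70.6 and 67.2 with siXRN2. In LN229 both siXRN2 libraries were below all 4 controls for 16.9% of all tested genes, and in U251 for 10.6%. How many genes did so in both lines was not counted. For SPP1 all 4 siXRN2 libraries were below all 8 control libraries of both lines, with no overlap. The fitted log2 fold change for siXRN2 against siNT was -0.97 (SE 0.14) in LN229 and -0.77 (SE 0.14) in U251. Against mock it was -0.71 in each line (SE 0.14). The difference between the lines in the siXRN2 against siNT effect was -0.20 (SE 0.20). All SPP1 exon reads were unique in every library, and intron reads were at most 1.08% of its gene reads.

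For LN229 against U251 in mock, edgeR's quasi-likelihood test gave SPP1 a log2 fold change of -0.03 with an SE of 0.14 and an adjusted p of 0.867. It was the only one of the 9 genes that did not pass this test. Its sign depended on the scaling and on single libraries, being 0.15 without TMM factors, 0.04 without LN229 mock 1 and 0.04 without U251 mock 2. For siNT against mock the same test gave SPP1 0.26 in LN229 (adjusted p 0.802) and 0.06 in U251 (adjusted p 1), each with an SE of 0.14.

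**Figure D1:**
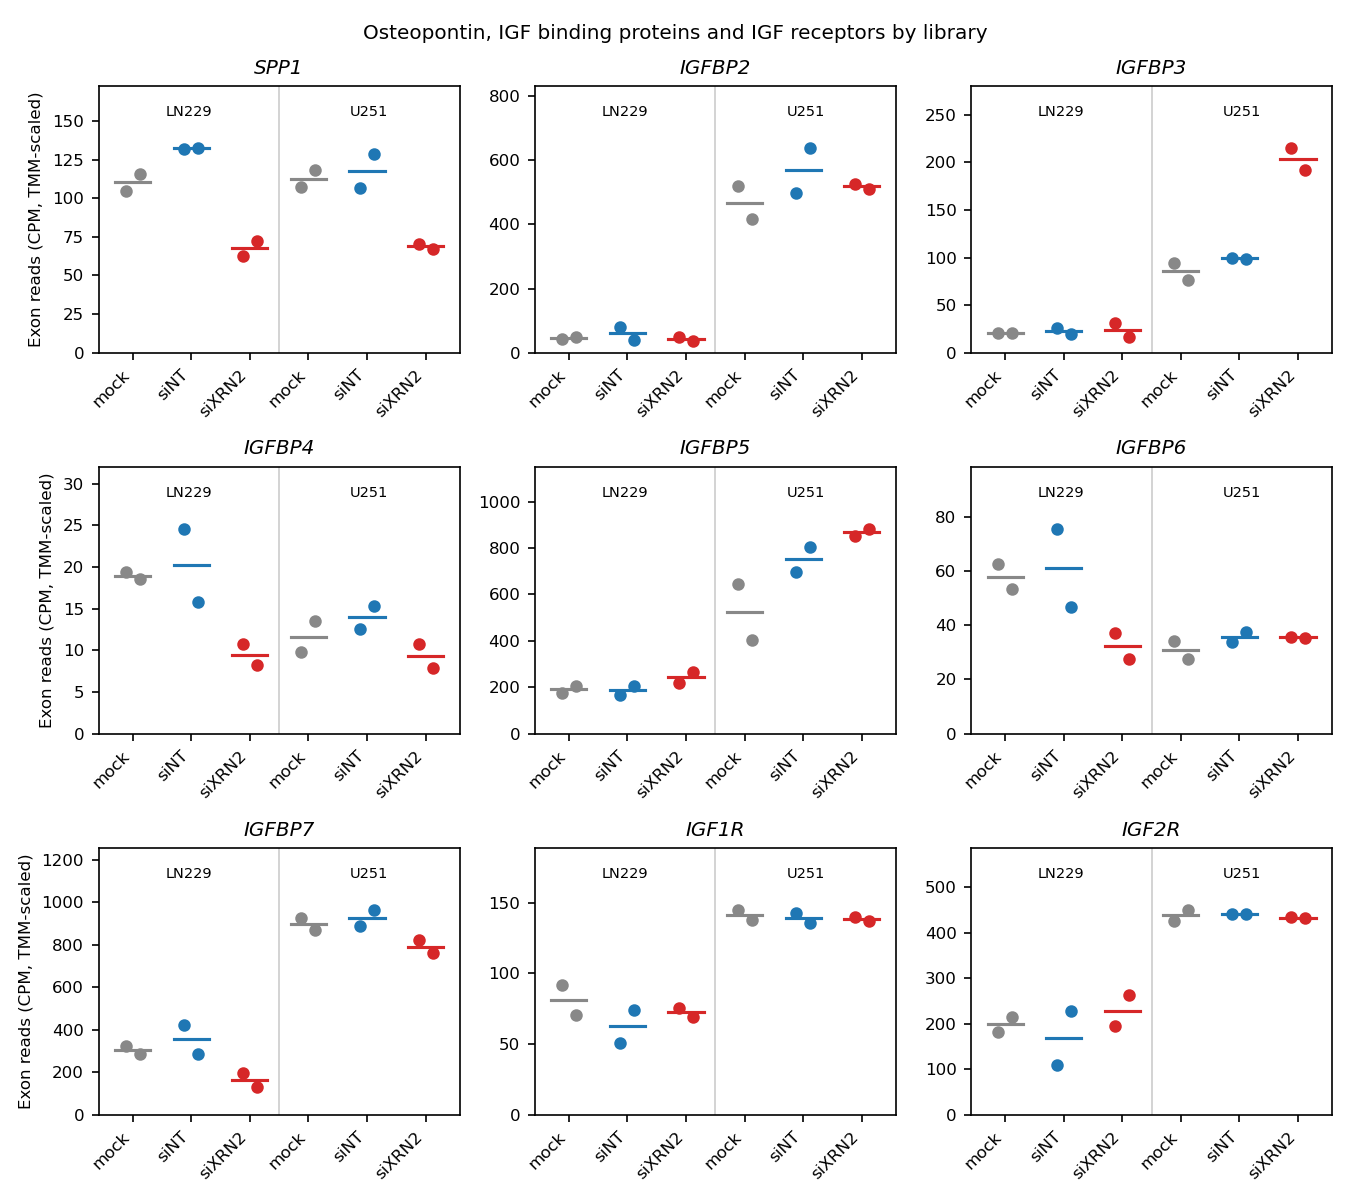
Exon reads in CPM (TMM-scaled, linear axis from 0) of the 9 genes in each of the 12 libraries, by line and transfection, with points for libraries and horizontal lines for the mean of each pair. SPP1 with siXRN2 sits at 62.7 to 72.4 CPM, below all controls, and IGFBP3 in U251 at 216 and 192 CPM, above all controls.

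Levels between genes were compared per exon length, on the deposited TPM (transcripts-per-million) scale. IGFBP7 was the most abundant of the 9 in both lines, with 576 ± 182 TPM in LN229 and 1648 ± 126 TPM in U251 (SD, n = 6 libraries of 3 treatments each). In LN229 it was followed by SPP1 with 183 ± 46.9 TPM, IGFBP6 with 161 ± 46.3 and IGFBP5 with 134 ± 29.4. These 3 neighbours overlapped in their library values. IGF2R with 56.0 ± 17.01 TPM, IGFBP2 with 42.0 ± 9.99, IGFBP4 with 30.0 ± 9.49, IGF1R with 22.2 ± 4.88 and IGFBP3 with 20.3 ± 4.81 formed a lower run in which each neighbour overlapped the next. In U251 IGFBP5 with 404 ± 99.5 TPM and IGFBP2 with 397 ± 49.99 overlapped each other and lay above SPP1 with 157 ± 39.2. IGF2R (107 ± 2.90), IGFBP3 (103 ± 47.0) and IGFBP6 (96.9 ± 9.08) then overlapped in TPM, while IGF1R (37.7 ± 1.05) and IGFBP4 (19.3 ± 4.398) were each apart from their neighbours.

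These means pool treatments, and the order of the group means was not the same in each, a difference that was not tested. IGFBP3 in U251 had mean TPM of 68.3 in mock, 78.6 in siNT and 163 with siXRN2, and so ranked 7 of the 9 in both control groups and 4 with siXRN2. By group means IGFBP2 ranked above IGFBP5 in both U251 control groups, by less than the larger of their SDs, and below it with siXRN2. In LN229 SPP1 ranked 2 in both control groups, and with siXRN2 it ranked 3, below IGFBP5.

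The 6 binding protein genes together made up 984 to 1218.5 TPM in the LN229 controls and 801 and 631 TPM with siXRN2. In U251 their sum was 2387 to 2928 TPM in the controls and 2728 and 2616.5 TPM with siXRN2, which overlapped. IGFBP7 made up 60.4% to 64.9% of the sum in the LN229 controls and 54.6% and 46.1% with siXRN2, and in U251 61.2% to 69.8% and then 56.8% and 55.4%. The share of IGFBP5 in LN229 was 7.65% to 13.6% in the controls and 18.2% and 28.6% with siXRN2. These shares are of summed TPM and are not amounts of protein.

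**Figure D2:**
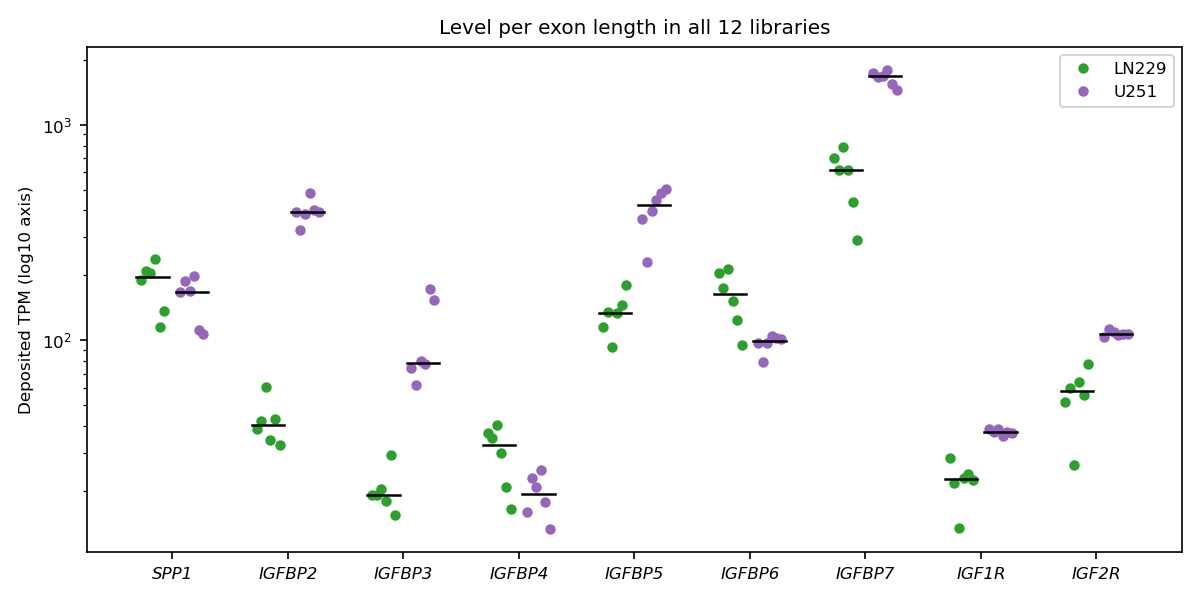
Deposited TPM (log10 axis) of the 9 genes in the 6 libraries of each line, with points for libraries and black bars for medians. IGFBP7 is the highest in both lines. IGFBP2, IGFBP3, IGFBP5, IGFBP7, IGF1R and IGF2R are higher in every U251 library than in any LN229 library.

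IGFBP7 (ENSG00000163453, chromosome 4, 57030773 to 57110385, minus strand) encodes a binding protein with low affinity for IGFs that is known as a component of vessel walls. In LN229 it had 322 and 285 CPM in mock, 423 and 284 in siNT, and 197 and 128 with siXRN2. In U251 it had 927 and 868 CPM in mock, 890.1 and 966 in siNT, and 820.3 and 761 with siXRN2. The siXRN2 libraries were below all 4 controls in each line, by a wide gap in LN229 and a narrow one in U251. The log2 fold change for siXRN2 against siNT was -1.12 (SE 0.21) in LN229 and -0.23 (SE 0.21) in U251, and against mock -0.90 (SE 0.21) and -0.18 (SE 0.21). Without LN229 siNT 1, its value against siNT in LN229 was -0.78, and without LN229 siXRN2 replicate 2 it was -0.84. It was -1.38 without LN229 siNT 2 and -1.475 without LN229 siXRN2 replicate 1.

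IGFBP7 shares 270 exon bases, 13.99% of its exon length, with POLR2B on the opposite strand, and 94 with IGFBP7-AS1. The library kit keeps no strand, so reads from these stretches cannot be assigned to 1 gene. Its unique exon reads, 74.4% to 80.9% of all its exon reads, had the same order: 221 to 336 CPM in the LN229 controls and 154 and 96.8 CPM with siXRN2. Intron reads of IGFBP7 in LN229 were 5.84 to 10.9 RPM (reads-per-million) in the controls and 7.94 and 8.24 RPM with siXRN2, which overlapped.

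IGFBP6 and IGFBP4, which encode an IGF2-preferring binding protein and one that PAPPA cleaves, were also lower with siXRN2 in LN229. IGFBP6 (ENSG00000167779, chromosome 12, 53097436 to 53102345, plus strand) had 62.4 and 53.3 CPM in LN229 mock, 75.6 and 46.8 in siNT, and 37.0 and 27.5 with siXRN2. The U251 values were 34.2 and 27.4 CPM in mock, 33.9 and 37.5 in siNT, and 35.8 and 35.1 with siXRN2. The groups were apart in LN229 and overlapped in U251. Its log2 fold change against siNT was -0.91 (SE 0.22) in LN229 and -0.01 (SE 0.22) in U251. Against mock it was -0.83 (SE 0.22) and 0.21 (SE 0.22). The value against siNT in LN229 was -0.50 without siNT 1, -1.22 without siNT 2 and -1.15 without siXRN2 replicate 1.

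IGFBP4 (ENSG00000141753, chromosome 17, 40443461 to 40457731, plus strand) was the least abundant of the 9 in U251 by TPM. It had 19.4 and 18.5 CPM in LN229 mock, 24.6 and 15.8 in siNT, and 10.7 and 8.24 with siXRN2. In U251 it had 9.75 and 13.6 CPM in mock, 12.6 and 15.3 in siNT, and 10.7 and 7.94 with siXRN2. Both siXRN2 libraries were below the controls in LN229, whereas in U251 1 of them lay above mock 1. Against siNT the fitted value was -1.07 (SE 0.26) in LN229 and -0.57 (SE 0.27) in U251, and against mock -0.99 (SE 0.26) and -0.32 (SE 0.27). The first of these was -0.70 without LN229 siNT 1 and -1.37 without LN229 siNT 2. Between the lines, the siXRN2 against siNT effect differed by -0.89 (SE 0.30) for IGFBP7, -0.90 (SE 0.31) for IGFBP6 and -0.50 (SE 0.37) for IGFBP4, given as values only.

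IGFBP3 (ENSG00000146674, chromosome 7, 45912245 to 45921874, minus strand) encodes the main IGF carrier of serum and is known as a target of TGF-beta and p53. In U251 it had 94.0 and 76.7 CPM in mock, 99.7 and 98.6 in siNT, and 216 and 192 with siXRN2. In LN229 it had 20.8 and 20.8 CPM in mock, 26.0 and 19.7 in siNT, and 31.5 and 16.1 with siXRN2. The U251 siXRN2 libraries were above all controls of that line with no overlap, while the LN229 pair lay on both sides of its controls. The log2 fold change against siNT was 1.04 (SE 0.22) in U251 and 0.08 (SE 0.25) in LN229, and against mock 1.26 (SE 0.22) and 0.21 (SE 0.25). In LN229 the value against siNT was -0.50 without siXRN2 replicate 1 and 0.47 without replicate 2, and that against mock -0.37 and 0.60. The difference between the lines in the siXRN2 against siNT effect was -0.96 (SE 0.34), LN229 minus U251. Intron reads of IGFBP3 in U251 were 4.36 and 2.20 RPM with siXRN2 and 0.139 to 2.14 RPM in the controls. These were 34 and 15 reads against 1 to 13. IGFBP1, which lies 18576 bases away, had at most 0.168 CPM in any library and was not tested.

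IGFBP5 (ENSG00000115461, chromosome 2, 216672105 to 216695525, minus strand) encodes a binding protein that attaches to matrix, and IGFBP2 (ENSG00000115457, 216632828 to 216664436, plus strand) one that binds integrins through an RGD motif. They lie 7668 bases apart, tail to tail, and are both far higher in U251. IGFBP5 had 177 and 207 CPM in LN229 mock, 167 and 207 in siNT, and 219.7 and 265 with siXRN2. U251 had 647 and 402 CPM in mock, 699 and 805 in siNT, and 851 and 884 with siXRN2. Both siXRN2 libraries were above all 4 controls for 16% of all tested genes in LN229 and 13.8% in U251. How many genes did so in both lines was not counted. IGFBP5 was the only one of the 9 genes to do so in both, though mock 2 of U251 was far below its partner. Against siNT the log2 fold change was 0.37 (SE 0.21) in LN229 and 0.21 (SE 0.20) in U251. Against mock it was 0.34 (SE 0.21) in LN229 and 0.73 (SE 0.21) in U251, the last being 0.42 without U251 mock 2 and 1.11 without U251 mock 1.

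IGFBP2 had 43.8 and 48.2 CPM in LN229 mock, 80.1 and 39.6 in siNT, and 47.9 and 35.4 with siXRN2. U251 gave 519 and 418 CPM in mock, 499 and 640.1 in siNT, and 527 and 511 with siXRN2. The siXRN2 libraries overlapped the controls in both lines, unlike those of its neighbour IGFBP5. Relative to siNT its log2 fold change was -0.51 (SE 0.27) in LN229, which was 0.11 without LN229 siNT 1 and -0.94 without LN229 siNT 2, and -0.13 (SE 0.25) in U251. Against mock it was -0.14 (SE 0.27) and 0.15 (SE 0.25). Of the IGFBP5 exon length 4.63% overlaps AC007563.2 on the opposite strand, and its unique reads were 88.7% to 93.9% of all its exon reads.

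IGF1R (ENSG00000140443, chromosome 15, 98648971 to 98964530, plus strand), the signalling receptor, had readings between 136 and 145 CPM in all 6 U251 libraries. They were 145 and 137 CPM in mock, 143 and 136 in siNT, and 139.5 and 137 with siXRN2. In LN229 they were 91.4 and 70.3 CPM in mock, 50.4 and 74.3 in siNT, and 75.4 and 69.1 with siXRN2. The groups overlapped in both lines, and LN229 siNT 1 was the lowest library. The log2 fold change against siNT was 0.21 (SE 0.18) in LN229 and -0.01 (SE 0.18) in U251, and against mock -0.16 (SE 0.18) and -0.03 (SE 0.18). The LN229 value against siNT was -0.01 without LN229 siNT 1 and 0.52 without LN229 siNT 2, and that against mock was 0.04 without LN229 mock 1.

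The IGF1R readings need care, because only 24.0% to 45.3% of its exon reads were counted as unique, against 74.4% or more for each of the other 8 genes. No exon of another GENCODE 29 gene overlaps it, and none of its 14063 words of 50 bases occurs in another GENCODE 29 transcript. Where its other reads came from was not tested, and how the counting defined a unique read was not found in the sources used here. The unique reads of IGF1R were 12.1 CPM in LN229 siNT 1 and 27.2 to 40.6 CPM in the other 5 LN229 libraries, while the other reads were 38.3 to 50.7 CPM in all 6. In U251 the unique reads were 45.9 to 54.7 CPM and the others 82.7 to 95.9 CPM. The gap between lines was thus wider in the reads that were not unique.

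**Figure D3:**
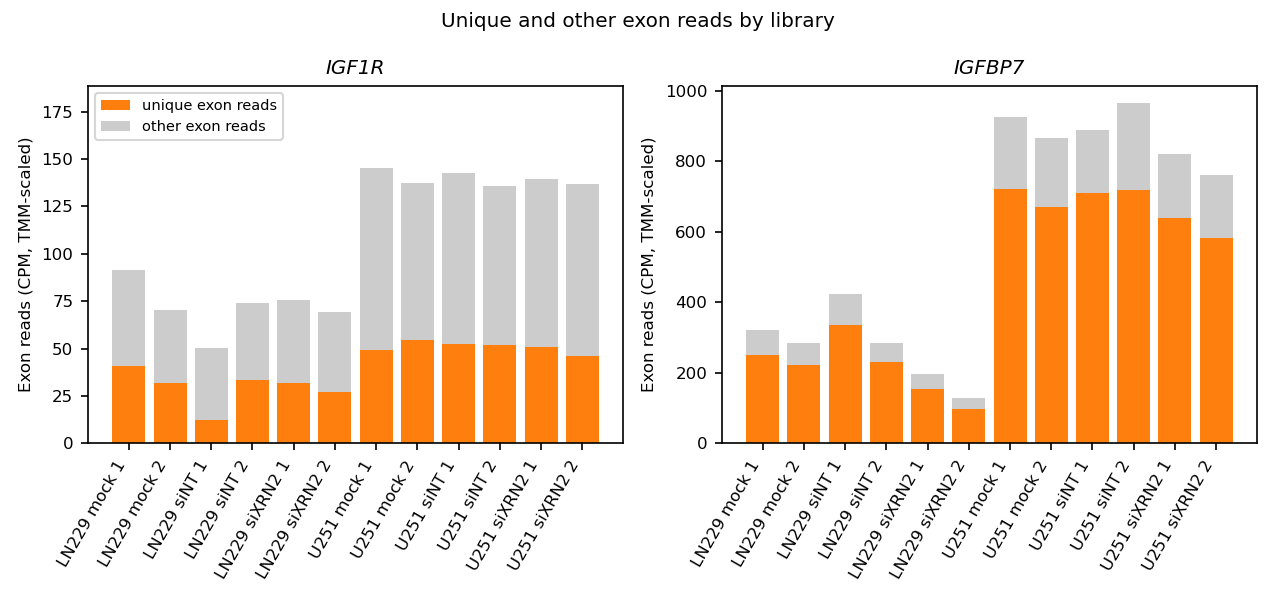
Exon reads (CPM, TMM-scaled, linear axis from 0) of IGF1R and IGFBP7 in each library, with unique reads in orange and all other exon reads stacked in grey. The low bar of IGF1R in LN229 siNT 1 comes from its unique reads, 12.1 CPM against 27.2 to 40.6 CPM in the other LN229 libraries.

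IGF2R (ENSG00000197081, chromosome 6, 159969099 to 160113507, plus strand), which clears IGF2 and sorts lysosomal enzymes, had a range of only 427 to 451 CPM over the 6 U251 libraries. In LN229 it had 183 and 214 CPM in mock, 109 and 229 in siNT, and 195 and 263 with siXRN2. The siXRN2 libraries overlapped the controls in both lines. Against siNT it gave a log2 fold change of 0.43 (SE 0.26) in LN229 and -0.03 (SE 0.26) in U251, and against mock 0.21 (SE 0.26) and -0.02 (SE 0.26). The LN229 value rested on the siNT pair, being 0.03 without siNT 1 and 1.06 without siNT 2. At 14911 exon bases IGF2R is the longest of the 9 genes.

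**Figure D4:**
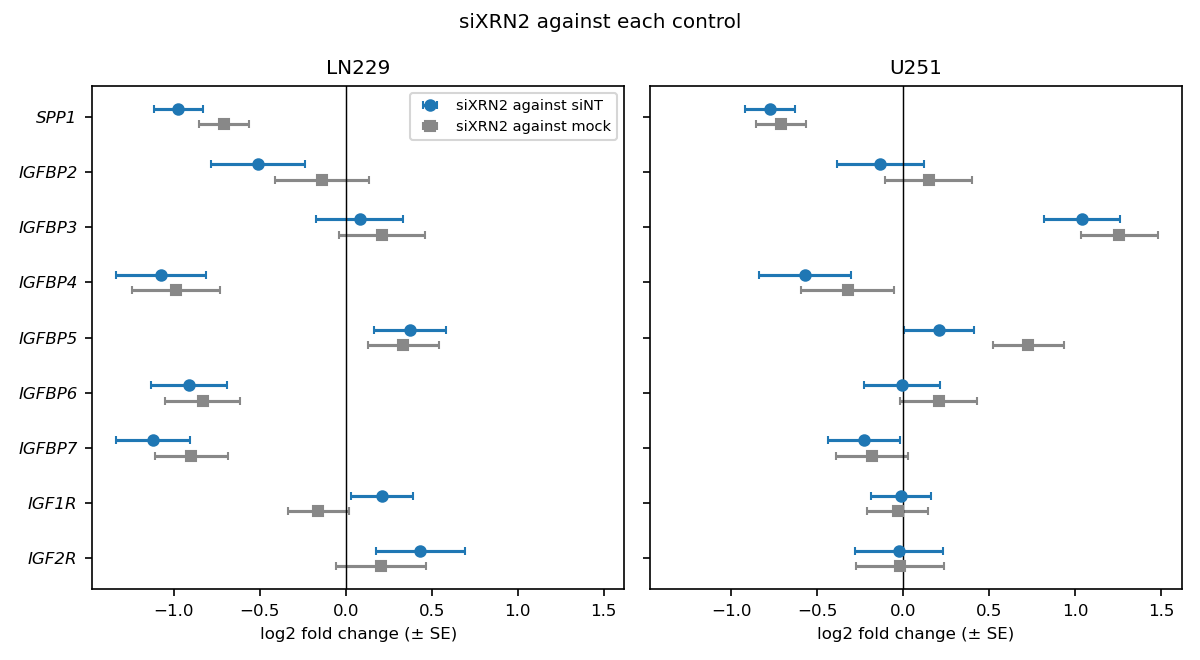
Log2 fold change with SE of the 9 genes for siXRN2 against siNT (blue circles) and against mock (grey squares) in LN229 and U251, from edgeR. SPP1 lies left of 0 in all 4 comparisons, from -0.97 to -0.71, and IGFBP3 lies right of 1 in U251 and near 0 in LN229.

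The counts of calls are given beside those over all tested genes, and since these contrasts chose the genes nothing is read from them. With edgeR's quasi-likelihood test at an adjusted p of 0.05, siXRN2 against siNT in LN229 called 4 of the 9 (SPP1, IGFBP4, IGFBP6 and IGFBP7, all lower) and 3.16% of all genes. None of these 4 calls held in every fit with 1 library left out. In those fits the values ran from -1.08 to -0.88 for SPP1 and from -1.37 to -0.70 for IGFBP4. They ran from -1.22 to -0.50 for IGFBP6 and from -1.475 to -0.78 for IGFBP7. Against mock in LN229 it called SPP1 alone and 1.29% of all genes. That single call was lost whichever of the compared libraries was left out, with SPP1 values from -0.81 to -0.61. In U251 the same test called none of the 9 against siNT, where 0.00703% of all genes passed. Here 2 of the 9 had an unadjusted p under 0.05, beside 553 of all 14232 tested genes. DESeq2 called 2 of the 9, beside 9 of all genes. Against mock in U251 edgeR's test also called none of the 9, beside 0.0492% of all genes. There 3 of the 9 had an unadjusted p under 0.05, beside 1526 of all tested genes. DESeq2 called 2 of the 9 against mock, beside 34 of all genes.

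Both siXRN2 libraries were below all 4 controls in LN229 for SPP1, IGFBP4, IGFBP6 and IGFBP7, as for 16.9% of all tested genes, and above them for IGFBP5, as for 16% of all. In U251 they were below for SPP1 and IGFBP7, as for 10.6% of all genes, and above for IGFBP3 and IGFBP5, as for 13.8% of all. The comparisons with siNT and with mock share the siXRN2 libraries, so they do not support each other.

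The lines were compared in mock cells, a contrast that the choice of genes did not use. The mock levels were among the levels known at that choice, so the count below is not independent of that choice. By edgeR's quasi-likelihood test 8 of the 9 differed between LN229 and U251, beside 54.9% of all tested genes. The largest gap was that of IGFBP2, at -3.35 on the log2 scale with an SE of 0.28 and an adjusted p of 7.36e-07, from means of 46.0 CPM in LN229 and 468 CPM in U251. IGFBP3 had a lower level in LN229, with a log2 difference of -2.03 (SE 0.24, adjusted p 1.4e-05), IGFBP7 one of -1.56 (SE 0.21, adjusted p 4.5e-05) and IGFBP5 one of -1.45 (SE 0.21, adjusted p 7.3e-05). The receptors were lower in LN229 too, IGF2R with -1.15 (SE 0.26, adjusted p 0.00253) and IGF1R with -0.81 (SE 0.18, adjusted p 0.00192). On unique reads alone IGF1R had -0.52 (adjusted p 0.144) and did not pass.

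IGFBP6 and IGFBP4 were the 2 genes higher in LN229 than in U251. In mock cells edgeR's quasi-likelihood test gave IGFBP6 a log2 difference of 0.91, with an SE of 0.22 and an adjusted p of 0.00345. In the siXRN2 libraries the line difference of IGFBP6 was -0.13 (SE 0.22). Those libraries were part of the choice of genes, so their line differences are given as values only. IGFBP4 had 0.69 (SE 0.26, adjusted p 0.0349), a call that was lost with DESeq2 (adjusted p 0.0721), without LN229 mock 1 (0.121), without LN229 mock 2 (0.0954) and without U251 mock 1 (0.199). In the siNT libraries the IGFBP4 gap was 0.53 (adjusted p 0.0945 by edgeR's quasi-likelihood test) and in the siXRN2 libraries 0.03 (SE 0.28). The gap of IGFBP3 was -2.12 in the siNT and -3.08 in the siXRN2 libraries, and that of IGFBP7 -1.39 and -2.28. The median over the 9 genes in mock was -1.15 on the log2 scale, beside 0.03 over all tested genes.

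The control siRNA against mock is the other contrast that the choice did not use, with the same limit. None of the 9 passed edgeR's quasi-likelihood test in LN229, beside 0% of all genes, with 0 of the 9 and 647 genes at an unadjusted p under 0.05 and 1 gene by DESeq2. None passed in U251, beside 0% of all genes, with 1 of the 9 (IGFBP5) and 682 genes at an unadjusted p under 0.05 and none by DESeq2. IGFBP5 in U251 stood at 0.52 on the log2 scale, with an SE of 0.21 and an adjusted p of 0.973 by edgeR, and it passed without U251 mock 1 (0.90, adjusted p 0.0303). In LN229 the replicate left out decided the result: without siNT 2, 3 of the 9 and 1913 genes passed, with IGFBP2 at 0.80, IGF1R at -0.68 and IGF2R at -0.86, whereas without siNT 1 none of the 9 passed and IGFBP2 was at -0.22 and IGF2R at 0.20. The difference between the lines in the siNT against mock effect was called for none of the 9 and for 0% of all genes by edgeR, with 0 of the 9 and 565 genes at an unadjusted p under 0.05, and 0 of the 9 by DESeq2. Without LN229 siNT 2 this difference passed for IGF2R (-0.87, adjusted p 0.0433 by edgeR).

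Transcripts of the ligands were close to absent in these cells, and ligand from serum was not measured. IGF1 had at most 0.169 CPM and IGF2 at most 0.176 CPM in any library, below what 3 reads are worth, and INS and IGFALS had too few reads to be tested. The insulin receptor INSR was read at 6.46 to 12.3 CPM in LN229 and 16.6 to 20.6 CPM in U251. Of 17 listed genes for IGF ligands, relatives and processing, 8 had enough reads to be tested. All 8 differed between the lines in mock by edgeR's quasi-likelihood test, 2 higher and 6 lower in LN229, beside 54.9% of all tested genes. In the siNT libraries 7 of the 8 passed, beside 54.5%, and in the siXRN2 libraries 4 of the 8, beside 54.3%. STC2, among the 6 lower, had 61.0 CPM in U251 mock 1 and 361 CPM in mock 2. Its log2 gap was -2.11 in the mock and -0.15 in the siNT libraries. IGF2BP3, an RNA-binding protein of IGF2 mRNA, was higher in LN229 (log2 fold change 2.68, adjusted p 2.31e-05). STC1, a stanniocalcin, was lower (-3.92, adjusted p 4.61e-05). ADAM12, a protease of binding proteins, was lower (-0.84, adjusted p 0.00592), but not without U251 mock 1 (adjusted p 0.0684). HTRA1, a secreted serine protease that cleaves IGFBP5, was higher (0.61, adjusted p 0.00647), but not without U251 mock 2 (adjusted p 0.0675).

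Of that list HTRA1 alone passed for siXRN2 against siNT in LN229, beside 3.16% of all genes. At an unadjusted p under 0.05 were 4 of the 8, beside 3165 of all 14232 tested genes. HTRA1 had 178 and 167 CPM in LN229 mock, 239.8 and 192 in siNT, and 133 and 112 with siXRN2, and by edgeR's quasi-likelihood test it fell by 0.82 in log2 against siNT, with an adjusted p of 0.0235 and an SE of 0.16. The call was lost without LN229 siNT 1 (adjusted p 0.0834), without siXRN2 replicate 2 (adjusted p 0.309) and in the compared groups alone (adjusted p 0.197), and against mock HTRA1 had -0.49 (adjusted p 0.147). In U251 its siXRN2 libraries lay within the range of the controls, with a log2 fold change of 0.01 against siNT (SE 0.16).

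Of 25 listed genes of IGF receptor signalling, 23 were tested. In mock 10 differed between the lines by edgeR's quasi-likelihood test, 2 higher and 8 lower in LN229, which is 43.5% beside 54.9% of all tested genes. Among the lower were RHEB, the activator of mTORC1, with a log2 fold change of -1.22 (adjusted p 2.95e-05), RPS6KB1 with -0.95 (adjusted p 6.58e-05) and FOXO3 with -1.45 (adjusted p 0.000196). None of the 23 passed for siXRN2 against either control in either line by this test. At an unadjusted p under 0.05 there were 6 in LN229 and 1 in U251 against siNT, and 4 and 3 against mock. Over all 14232 tested genes these counts were 3165 and 553 against siNT, and 2355 and 1526 against mock. Over the 3 lists together DESeq2 called 7 of the 45 tested genes in LN229 and 1 in U251 against siNT, and 4 and 1 against mock. Among all genes it called 773 and 9 against siNT, and 412 and 34 against mock.

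Of 23 listed relatives, receptors and modifiers of osteopontin, 14 were tested. IBSP, DMP1, MEPE and DSPP, which with SPP1 form a cluster of bone and tooth matrix genes, had too few reads. In mock 9 of the 14 differed between the lines by edgeR's quasi-likelihood test, 5 higher and 4 lower in LN229, which is 64.3% beside 54.9% of all tested genes. The receptor CD44 was lower in LN229, at 625 and 660.4 CPM against 1542 and 1888 CPM (log2 fold change -1.42, adjusted p 2.7e-06), and ITGAV was lower as well (-1.08, adjusted p 0.000489). RUNX2, a transcription factor of bone cells, was also lower (-1.68, adjusted p 8.95e-07). ACP5, a phosphatase that acts on osteopontin, was higher (4.17, adjusted p 3.06e-07), with means of 19.1 and 1.04 CPM. MMP7, a protease that cleaves osteopontin, had at most 0.202 CPM in LN229, below what 3 reads are worth, and 25.04 and 20.02 CPM in U251 mock, so no fold is given.

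Among the osteopontin receptors, the integrin chains ITGB1 and ITGB5 fell with siXRN2 in LN229. ITGB1 had 1156 and 1118 CPM in mock, 961 and 1283 in siNT, and 552 and 285 with siXRN2. Its log2 fold change was -1.42 against siNT (SE 0.24, adjusted p 0.0141, edgeR's quasi-likelihood test) and -1.44 against mock (SE 0.24, adjusted p 0.0163). The first call was lost without LN229 siNT 1 (adjusted p 0.0666) or siXRN2 replicate 2 (adjusted p 0.163) and in the compared groups alone (0.106), and the second without mock 1 (0.185), mock 2 (0.116) or siXRN2 replicate 2 (0.151) and in the compared groups alone (0.0629). ITGB5 had 187 to 195 CPM in the 4 controls and 134 CPM in each siXRN2 library, and fell by 0.51 in log2 against siNT, with an adjusted p of 0.0464 and an SE of 0.12 by edgeR. That call was lost without siNT 1 (adjusted p 0.1), siXRN2 replicate 1 (0.0784) or siXRN2 replicate 2 (0.344). It was also lost with DESeq2 size factors (0.0513), without TMM factors (0.0818), without the count filter (0.054) and in the compared groups alone (0.380), all by edgeR. In U251 ITGB1 had 1140.1 to 1220.0 CPM in the controls and 906 and 809.7 CPM with siXRN2, with -0.44 against siNT (SE 0.24, adjusted p 1). CD44, ITGAV and ITGB3 had log2 fold changes of -0.31, -0.18 and -0.03 against siNT in LN229 and of -0.0013, -0.17 and -0.10 in U251, none of which passed edgeR's test.

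MMP7 rose with siXRN2 against mock in U251, the 1 call of the list in that line. It had 25.04 and 20.02 CPM in mock, 18.3 and 23.6 in siNT, and 58.4 and 67.5 with siXRN2, with no overlap. By edgeR's quasi-likelihood test its log2 fold change was 1.49 against mock (SE 0.22, adjusted p 0.0388) and 1.59 against siNT (SE 0.22, adjusted p 0.0589). The call against mock was lost without U251 mock 2 (adjusted p 0.624) and without siXRN2 replicate 1 (0.316) or 2 (0.753), with the replicate block (0.0710) and in the compared groups alone (0.170). In all, 3 of the 45 tested genes of the 3 lists passed for siXRN2 against siNT in LN229, all lower, beside 3.16% of all genes. Against mock 1 passed in each line, beside 1.29% of all genes in LN229 and 0.0492% in U251. Against siNT in U251 edgeR called 0 of the 45, beside 0.00703% of all genes. There 4 of the 45 had an unadjusted p under 0.05, beside 553 of all 14232 tested genes. For siNT against mock edgeR called 0 of the 45 in either line, beside 0% of all genes, and DESeq2 called 0. At an unadjusted p under 0.05 were 1 in LN229 and 3 in U251, beside 647 and 682 of all tested genes. The lists' median log2 fold changes for siXRN2 against siNT in LN229 were -0.05, 0.16 and -0.29 in the order given, beside -0.00078 over all tested genes.

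**Figure D5:**
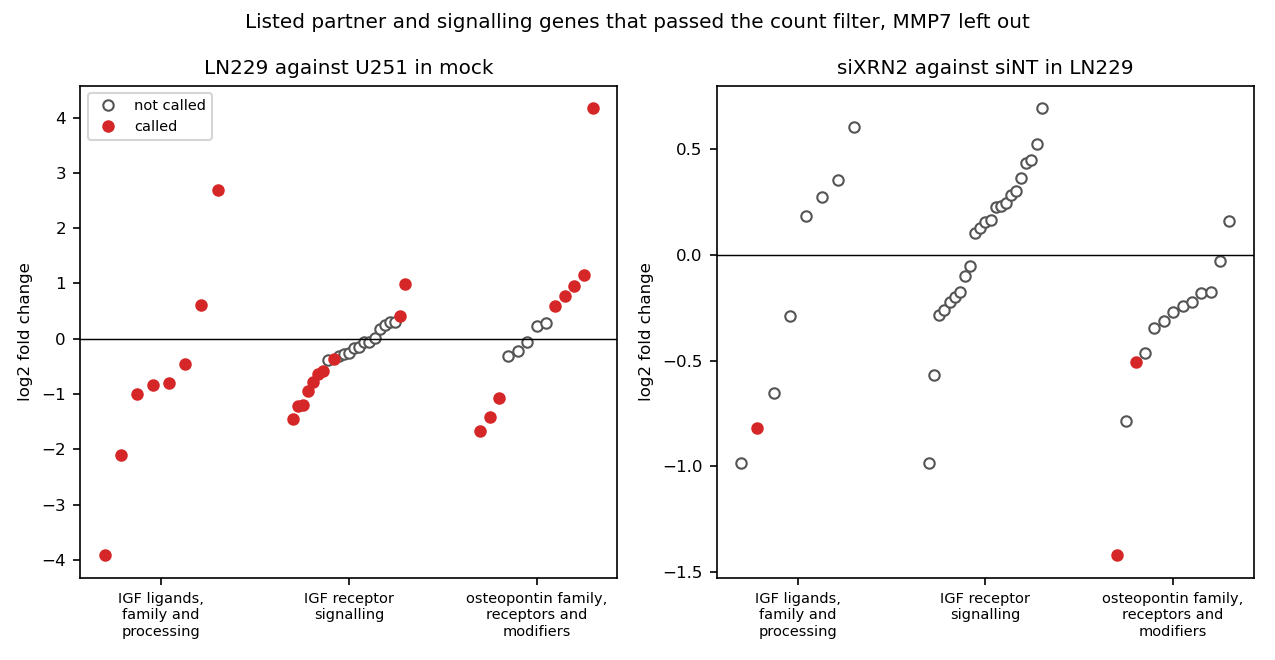
Log2 fold changes from edgeR of the listed genes that passed the count filter, for LN229 against U251 in mock (left) and siXRN2 against siNT in LN229 (right), with filled points for an adjusted p under 0.05. MMP7 is left out because it is near 0 reads in LN229. On the right only HTRA1, ITGB1 and ITGB5 are filled, all below 0.

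Which genes were read most like these was described by Pearson's r of log2 CPM, centred on the mean of each line, over the 12 libraries and among 10377 genes. The points share library, depth and the siXRN2 groups, so r is given without a test. Nearest to SPP1 were FOPNL (0.95), XRN2 itself (0.94), ITGB5 (0.93), PLOD3 (0.93) and TFPI (0.92). Nearest to IGFBP7 were FXYD5 (0.99), HTATSF1, SEC61B, ARPC5 and COX8A (0.98 to 0.99). Nearest to IGFBP5 were NDRG4 (0.97), WDR6, GRIN2A and NMT1 (0.95 to 0.96). Among the 9 genes the closest pairs were IGFBP6 with IGFBP7 (0.93), IGFBP4 with IGFBP7 (0.91) and SPP1 with IGFBP4 (0.82). The genes of these pairs have the shortest exon lengths of the 9, from 1279 to 2321 bases. IGFBP6, IGFBP7 and IGFBP4 were highest among the LN229 libraries in siNT 1, whose difference from siNT 2 followed exon length. SPP1 was read alike in both siNT libraries, at 132 and 133 CPM. The part of exon length in these r values was not tested.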

How the data were processed

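Total RNA of 12 libraries was made into TruSeq RNA v2 libraries, per the labels' protocols. This chemistry enriches poly(A) RNA and records no strand. The authors deposited 1 table per library with whole-number read counts per gene (total, unique, exon-exon and intron reads), per the file headers. Deposited TPM values stand in the same tables, and those of the 9 genes followed total exon reads over exon length within 1.59%. The aligner and the counter were not found in the sources used here. GRCh37 and hg19 stand in the submitters' processing notes, but 96.8% of 57881 shared gene identifiers lie at their GENCODE 29 (GRCh38) position. Total exon reads were fitted in edgeR 4.0.16 (R 4.3.3) with 1 mean per group, TMM factors (0.927 to 1.13), filterByExpr (minimum count 10, total 15), robust quasi-likelihood dispersions with 6 residual degrees of freedom and Benjamini-Hochberg adjustment over 14232 genes at 0.05. The SE of a log2 fold change is its size divided by the square root of F. The script was tested on simulated data.

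The 9 genes and the gene lists were chosen with earlier results of these data known. Named besides them are up to 4 called genes per list and comparison, with INSR, IGF1, IGF2, STC2, CD44, ITGAV, ITGB1 and ITGB3 by their values. IGFBP1 and untested list genes are named too, as are the 5 genes nearest in pattern to SPP1, IGFBP5 and IGFBP7. Of the genes this rule names, 2 are not reported here. Chi-square per gene was 1.72 to 26.0 in the 6 replicate pairs, so no pair agreed within sampling noise. Alternatives were DESeq2 1.42.0, its size factors, no TMM, no filter, at least 5 CPM in 2 libraries, unique exon reads, a replicate block, the compared groups alone and each library left out. Figures were drawn with matplotlib 3.10.9 in Python 3.11.15.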

Additional observations from a re-analysis of the deposited data

How the results depend on the processing

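Each group had 2 libraries, and 1 library often decided a call; where 1 was left out, the lone sample was taken to vary like the other groups. The cause of the shifts below was not tested. Of the 9 genes' siXRN2 values, 406 refits moved by less than the spread and 26 by more. Of their tested values, 441 kept direction and call, 33 changed sign, 5 became calls and 7 lost the call. The replicate differences of the groups were little correlated (-0.07 to 0.10 over 15 pairs). Whether same-numbered libraries shared a day or culture is not in the labels, and low correlation cannot decide it.

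Leaving out 1 library, the LN229 against U251 value of SPP1 ran from -0.11 to 0.038. For siNT against mock in LN229 the ranges were -0.22 to 0.80 for IGFBP2, -0.082 to 0.32 for IGFBP3, -0.26 to 0.38 for IGFBP4, -0.20 to 0.11 for IGFBP5, -0.31 to 0.39 for IGFBP6, -0.10 to 0.48 for IGFBP7 and -0.86 to 0.20 for IGF2R, with 0 to 3 of the 9 genes, 0 to 9 listed genes and 0 to 1913 of all genes called. In U251 they were -0.078 to 0.19 for SPP1, -0.012 to 0.10 for IGFBP7, -0.060 to 0.018 for IGF1R and -0.033 to 0.047 for IGF2R, with 0 to 1, 0 to 6 and 0 to 475 called. For the difference between these effects they were -0.48 to 0.52 for IGFBP2, -0.28 to 0.11 for IGFBP3, -0.48 to 0.13 for IGFBP4, -0.50 to 0.18 for IGFBP6, -0.12 to 0.43 for IGFBP7 and -0.87 to 0.22 for IGF2R. Counts for siXRN2 against siNT in LN229 ran 0 to 7, 0 to 14 and 1 to 3296. Against mock they ran 0 to 2, 0 to 3 and 1 to 657 in LN229, and 0 to 3, 0 to 6 and 1 to 768 in U251.

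Other sign changes were SPP1 between lines without TMM factors (0.15) and in siNT libraries (0.17), IGFBP6 (-0.13) and HTRA1 (-0.049) between lines in siXRN2 libraries, IGFBP5 for siNT against mock in LN229 on unique reads (0.016) and IGF2R for siNT against mock in U251 in the compared groups alone (-0.013). DESeq2 called 7 listed and 773 genes for siXRN2 against siNT in LN229, 2 of the 9, 1 listed and 9 genes in U251, 3, 4 and 412 against mock in LN229, 2 of the 9 and 34 genes against mock in U251, and 1 gene for siNT against mock in LN229. Without the filter the counts were 9 listed and 1550 genes, then 2, 1 and 69, then 4, 9 and 1026, then 3, 3 and 502 in the same order, with 70 genes for siNT against mock in LN229 and 3 listed and 247 genes in U251. Without TMM factors 2 of the 9 were called for siXRN2 against siNT in LN229. With the replicate block 5 listed genes were called there, 3 of the 9 against mock in LN229 and 0 listed against mock in U251. The compared groups alone gave 0 of the 9, 0 listed and 4 genes for siXRN2 against siNT in LN229, 3, 6 and 497 in U251, 103 genes against mock in LN229, and 0 listed and 1 gene against mock in U251. Unique reads gave 1 listed and 4 genes for siXRN2 against siNT in U251.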
